A study of Mus musculus with 6 samples.

Results

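The SMAD genes encode the proteins that carry signals of the TGF-β superfamily from receptors at the cell surface to the nucleus. The mouse has 8 of them, *Smad1*, *Smad2*, *Smad3*, *Smad4*, *Smad5*, *Smad6*, *Smad7* and *Smad9*, and they were chosen by name as a family, with earlier results of these data known. All 8 were found by Ensembl gene identifier among the 20409 features of the count table, and 7 of them were among the 13346 features with enough counts to be tested. *Smad9* was the member left out.

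RNA was sequenced from villus epithelium of the duodenum, 1 library per mouse, from 3 double mutant (DM) and 3 wild-type (WT) mice. The DM mice carried Villin-CreERT2, Smad4 fl/fl and Ctnnb exon3 fl/wt, so that tamoxifen removed *Smad4* and stabilised β-catenin (labelled Smad4 knockout and beta-catenin GOF, gain of function) throughout the intestinal epithelium, where the Villin promoter drives Cre. They received tamoxifen into the peritoneum at 0.05 g/kg on 4 consecutive days, and villi were collected 7 days after induction. The WT mice were littermates that were not injected, matched for age and sex on a C57BL6-enriched background, with the age itself not given in the sources used here. Both alleles and the tamoxifen therefore changed together, and their separate parts cannot be told apart. Each group held 2 females and 1 male, and the male was replicate 1 in both groups.

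Libraries held 19678507 to 26337318 counts, and 3 counts, taken as the floor of detection, corresponded to 0.125 to 0.163 counts relative to the library total (CPM). All CPM values are scaled by edgeR's TMM factors. The floors cover counting error only. The villus label was checked against enterocyte markers, and the sum of 8 such markers was 38180 to 43070 CPM in WT villi and 20730 to 22230 CPM in DM villi, with 6 of the 8 lower in DM by the test used below. WT mouse 1 stood apart from the other WT mice, with 124.8 CPM of 7 goblet cell markers against 11600 and 11030 CPM, and with 5.54 CPM of 5 Paneth cell markers against 602.2 and 1015 CPM. In DM villi the same lists summed to 4659 to 5057 CPM and 125.6 to 193.0 CPM. Markers of crypt stem cells summed to 29.37 CPM in WT mouse 1, against 113.8 and 123.8 CPM in the other WT mice. In DM villi they summed to 194.9 to 256.1 CPM, and 1 of the 5 genes was called higher. The sum of 6 tuft cell markers was 107.3 to 155.4 CPM in WT and 13.87 to 15.02 CPM in DM villi, and that of 6 enteroendocrine markers 224.1 to 310.6 and 96.07 to 105.4 CPM. Leukocyte markers gave 43.99 to 89.0 CPM in WT and 32.63 to 47.61 CPM in DM villi. Markers of other tissue layers were low. Of the fibroblast and mesenchyme list 5 of 7 genes were in the table, with at most 4.221 CPM in sum and with *Col1a2*, *Col3a1* and *Pdgfra* at 3 counts or fewer in every library. Smooth muscle markers summed to at most 11.31 CPM, with *Tagln* at 4.035 to 7.329 CPM in every library, and endothelial ones to at most 2.611 CPM, with *Kdr* at 3 counts or fewer in every library. The erythroid list had 2 of its 5 genes in the table, with at most 0.7511 CPM in sum.

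SMAD proteins fall into 3 classes. The receptor-regulated SMADs are phosphorylated by activated receptors at serines of their C-terminal tail, those encoded by *Smad1*, *Smad5* and *Smad9* mainly by BMP receptors and those encoded by *Smad2* and *Smad3* mainly by TGF-β and activin receptors. The phosphorylated forms join SMAD4, the common mediator, enter the nucleus and regulate genes. SMAD6 and SMAD7 are inhibitory SMADs, which block the receptors or compete with SMAD4 for receptor-regulated SMADs, and their genes are themselves known targets of the pathway. In the intestine BMP signals from the mesenchyme are strongest toward the villus and are known for restraining stemness there.

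The ends of coding sequences are shown because they separate receptor-regulated members from an inhibitory one. Those of *Smad2*, *Smad4* and *Smad7* are not shown, so the common mediator cannot be placed from them. The lines give the last 36 coding bases, 5′ to 3′ and with the stop codon, from the first-numbered coding transcript of GENCODE's annotation of NCBIM37 (mm9), and capitals mark serine codons among the last 4 codons before the stop.
*Smad1*: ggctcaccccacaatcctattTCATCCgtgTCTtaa
*Smad5*: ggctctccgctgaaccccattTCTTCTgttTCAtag
*Smad9*: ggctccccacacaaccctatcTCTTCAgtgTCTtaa
*Smad3*: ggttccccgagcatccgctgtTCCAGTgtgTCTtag
*Smad6*: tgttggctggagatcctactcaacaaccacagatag
The 4 receptor-regulated genes shown each had 3 such serine codons, and *Smad6* had 0. Within their coding sequences *Smad1* and *Smad9* were 78.8% identical, *Smad1* and *Smad5* 77.5%, *Smad2* and *Smad3* 77.1%, and *Smad6* and *Smad7* 70.4%. The longest run of bases shared exactly by transcripts of any 2 members was 29, against sequencing reads of 150 bases. No other annotated gene overlapped any of the 8 genes in mm9.

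Of the 7 tested members, 4 passed an adjusted p of 0.05 in edgeR's quasi-likelihood test with Benjamini-Hochberg adjustment over all 13346 features. *Smad4*, *Smad6* and *Smad7* fell and *Smad1* rose, while *Smad2*, *Smad3* and *Smad5* did not pass. Over all tested features 36.8% passed, 19.7% higher and 17% lower in DM villi. A call at this threshold was therefore common in these libraries, and the sizes separate the members further. Only 2.26% of features were lower past the threshold with a log2 fold change of -2 or below, and the 3 members that fell were all among them. *Smad4* is the gene targeted in the DM mice, so its fall was set by the design, which leaves *Smad6* and *Smad7*. The 95% intervals of *Smad4* and *Smad7* reached -1.80 and -1.74. With scaling by library size alone *Smad7* lay at -1.98.

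*Smad4* (ENSMUSG00000024515; mm9 chromosome 18, 73798663 to 73863434, minus strand) is the gene targeted in the DM mice and encodes the common mediator. Its level was 119.8, 180.1 and 144.5 CPM in WT mice 1 to 3 and 26.05, 36.83 and 32.13 CPM in DM mice 1 to 3. Every DM mouse lay far under every WT mouse, and none was near the floor. DM villi kept 21.4% of the mean WT level, with a 95% interval of 15.9% to 28.7% from the fit (log2 fold change -2.22, standard error 0.187, edgeR adjusted p = 0.000145). Counts per gene do not show which exons the remaining reads came from, so transcripts with and without the floxed part are counted together. In bulk libraries fewer cells of a type and less RNA per cell cannot be told apart, and the part of the epithelial cell type and leukocyte marker levels given above in this and the other SMAD results was not tested.

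*Smad6* (ENSMUSG00000036867; chromosome 9, 63800953 to 63869866, minus strand) had the largest change of the family. It encodes the inhibitory SMAD that acts mainly on BMP signals. WT mice 1 to 3 had 790, 765 and 597 counts, or 32.91, 41.62 and 30.18 CPM, and DM mice 1 to 3 had 29, 14 and 10 counts, or 1.361, 0.6493 and 0.4747 CPM. The lowest WT mouse and the highest DM mouse were thus well separated, and all 3 DM mice were above their floor of 3 counts. The level fell 41.8-fold, to 2.39% of WT with a 95% interval of 1.39% to 4.12% (log2 fold change -5.39, standard error 0.342, edgeR adjusted p = 5.49e-05). Counted from the most negative log2 fold change, *Smad6* stood at place 32 of 13346, ahead of *Smad4* at place 283.

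*Smad7* (ENSMUSG00000025880; chromosome 18, 75527183 to 75555589, plus strand) encodes the other inhibitory SMAD, which acts on both BMP and TGF-β receptors. WT mice 1 to 3 had 102.3, 139.8 and 115.7 CPM and DM mice 1 to 3 had 20.98, 26.48 and 32.23 CPM. All DM mice were lower than all WT mice, but unlike *Smad6* the gene was still well above the floor. The fall was 4.49-fold (log2 fold change -2.17, standard error 0.185, 95% interval -2.59 to -1.74, edgeR adjusted p = 0.000147).

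The inhibitory genes did not fall by the same factor. Per kb of exon, *Smad6* stood at 0.4635, 0.4292 and 0.3757 of the level of *Smad7* in WT mice 1 to 3, and at 0.09351, 0.03534 and 0.02122 in DM mice 1 to 3. The groups did not overlap, and the mean log2 ratio differed by -3.35. The ratio of *Smad7* to *Smad4*, by contrast, was 0.7015, 0.6373 and 0.6578 in WT and 0.6612, 0.5905 and 0.8235 in DM mice. These ranges overlapped, with a mean difference of 0.04 on the log2 scale, which was less than the spread between mice. The ratios hold within each library, so the scaling between libraries cancels.

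**Figure D1:**
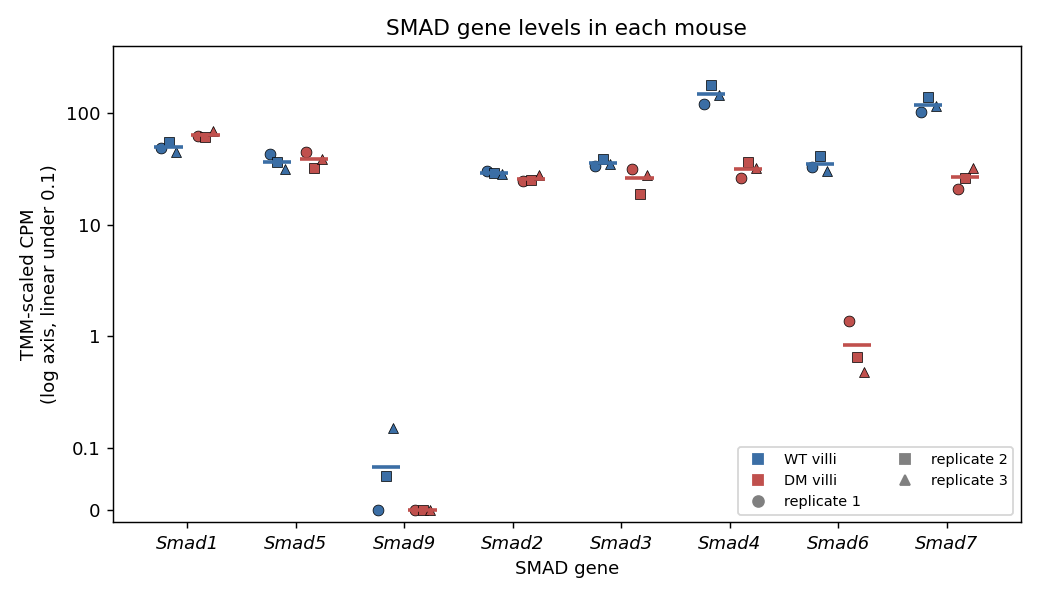
Level of each SMAD gene in TMM-scaled CPM (log axis, linear under 0.1) in the 3 WT and 3 DM mice, with 1 point per mouse, its shape giving the replicate, and a bar at the mean. The groups are apart for *Smad4*, *Smad7* and most widely for *Smad6* (30.18 to 41.62 against 0.4747 to 1.361 CPM), and those of *Smad5* overlap.

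Of the receptor-regulated SMADs of the BMP branch, *Smad1* (ENSMUSG00000031681; chromosome 8, 81862294 to 81923417, minus strand) was the member that passed the test. WT mice 1 to 3 had 48.69, 55.43 and 44.43 CPM and DM mice 1 to 3 had 62.81, 60.99 and 68.49 CPM. The groups did not overlap, but the gap between them was smaller than the range within either. The level was 1.29-fold higher in DM villi (log2 fold change 0.37, standard error 0.121, 95% interval 0.10 to 0.65, edgeR adjusted p = 0.0406). This call was weak. When each mouse was omitted in turn it held once, without WT mouse 2, with adjusted p values from 0.0362 to 0.144 (edgeR) and log2 fold changes from 0.30 to 0.46, and it was lost with DESeq2 (adjusted p = 0.0673) and with RLE factors in edgeR (adjusted p = 0.0519).

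*Smad5* (ENSMUSG00000021540; chromosome 13, 56804371 to 56843738, plus strand), the close relative of *Smad1*, had 42.61, 36.39 and 31.24 CPM in WT and 44.46, 32.37 and 38.92 CPM in DM mice. The ranges overlapped throughout. The log2 fold change was 0.07, with a 95% interval of -0.30 to 0.44 (edgeR adjusted p = 0.767). *Smad9* (ENSMUSG00000027796; chromosome 3, 54559504 to 54605179, plus strand), the gene of the protein also called SMAD8, had 0, 1 and 3 counts in WT mice and 0 in each DM mouse. It was at or under the floor in all 6 libraries, and a difference was not detectable at this depth.

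Neither gene of the TGF-β branch passed the test. *Smad2* (ENSMUSG00000024563; chromosome 18, 76401234 to 76465385, plus strand) varied least of the tested members within WT, with 30.03, 29.10 and 28.30 CPM in WT and 24.41, 25.09 and 27.72 CPM in DM mice. The DM mice were all below the WT mice by a narrow margin. The log2 fold change was -0.18, with a 95% interval of -0.44 to 0.08 (edgeR adjusted p = 0.252).

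*Smad3* (ENSMUSG00000032402; chromosome 9, 63494574 to 63605801, minus strand) had 33.32, 38.79 and 35.23 CPM in WT and 31.88, 19.02 and 27.77 CPM in DM mice. DM mouse 1 was close to the WT range and DM mouse 2 was far under it. The log2 fold change of -0.45 (95% interval -0.87 to -0.02) had an unadjusted p of 0.0406 and an adjusted p of 0.0913 in edgeR's test. It passed without DM mouse 1 (edgeR adjusted p = 0.0447), and in the females alone, an alternative chosen after the data were seen, with a log2 fold change of -0.66 (edgeR adjusted p = 0.0216). Without DM mouse 2, the lowest mouse, it was -0.26 (edgeR adjusted p = 0.207).

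Without overlap between the groups were 6 of the 7 tested members, all but *Smad5*, against 52.4% of all tested features. Of these 5 lay lower in DM villi, beside 24.2% of all tested features, and 1 lay higher, beside 28.1%. Scaling by library size alone moved the log2 fold change of all genes by a median of 0.19. Under it *Smad2* lay at 0.01 and *Smad3* at -0.25, while *Smad4*, *Smad6* and *Smad7* lay at -2.04, -5.19 and -1.98. The move of *Smad2* across 0 is the shift of all genes under that scaling. The 3 genes that fell stayed past the adjusted p threshold, although *Smad7* was no longer at a log2 fold change of -2 or below.

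**Figure D2:**
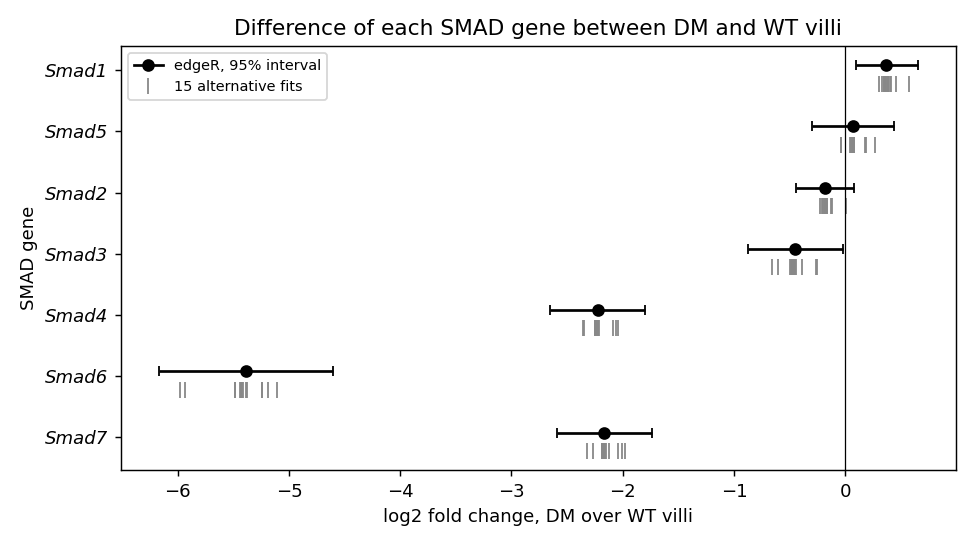
Log2 fold change of DM over WT villi for the 7 tested SMAD genes, with 95% intervals from the edgeR fit and, as grey ticks, the values of the 15 alternative fits, arranged by class. The intervals of *Smad4* (-2.65 to -1.80), *Smad7* and *Smad6* lie far below 0, and that of *Smad1* lies just above it.

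Levels of different members can be set side by side per kb of exon. In WT villi *Smad4* was the highest, with 39.9 ± 8.18 CPM per kb (SD, n = 3), followed by *Smad7* at 26.38 ± 4.203 and *Smad6* at 11.1 ± 1.91 CPM per kb. The common mediator and the inhibitors thus stood above every receptor-regulated member. *Smad1* at 8.52 ± 0.954 and *Smad2* at 8.21 ± 0.244 CPM per kb overlapped between mice, and *Smad3* at 6.46 ± 0.500 and *Smad5* at 4.95 ± 0.768 CPM per kb came after them. With the length of the first-numbered transcript in place of the exon union, a choice made after the data were seen, *Smad1* took the third place in WT villi at 15.98 CPM per kb and overlapped *Smad6* at 12.03 CPM per kb.

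In DM villi *Smad1* was the highest, with 11.02 ± 0.673 CPM per kb, and its lowest mouse lay above the highest mouse of every other member. *Smad4* at 8.53 ± 1.46, *Smad2* at 7.25 ± 0.492, *Smad7* at 5.88 ± 1.24, *Smad5* at 5.20 ± 0.815 and *Smad3* at 4.73 ± 1.19 CPM per kb formed a chain in which each overlapped the next. *Smad6* followed at 0.264 ± 0.150 CPM per kb. With the length of the first-numbered transcript *Smad1* was again the highest, at 20.68 against 9.359 CPM per kb for *Smad4*. The chain then broke, as *Smad2* at 9.01 did not overlap *Smad7* at 6.21 CPM per kb. Summed over all 8 genes, the level was 93.97, 122.4 and 100.3 CPM per kb in WT mice 1 to 3 and 41.52, 41.34 and 45.78 CPM per kb in DM mice 1 to 3.

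The makeup of this sum differed accordingly. *Smad4* gave 37.6 ± 2.86% of it in WT and 19.9 ± 3.66% in DM villi (SD, n = 3), and the inhibitory genes gave 35.5 ± 0.550% and 14.3 ± 1.87%. *Smad1*, *Smad5* and *Smad9* together went from 12.9 ± 1.85% to 37.9 ± 2.33%, and *Smad2* with *Smad3* from 14.0 ± 1.51% to 27.9 ± 2.51%. These shares describe the mix of transcripts, and a share can rise because the others fell: the level of *Smad5* was within its spread while its share went from 4.77 ± 1.16% to 12.1 ± 2.03%.

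**Figure D3:**
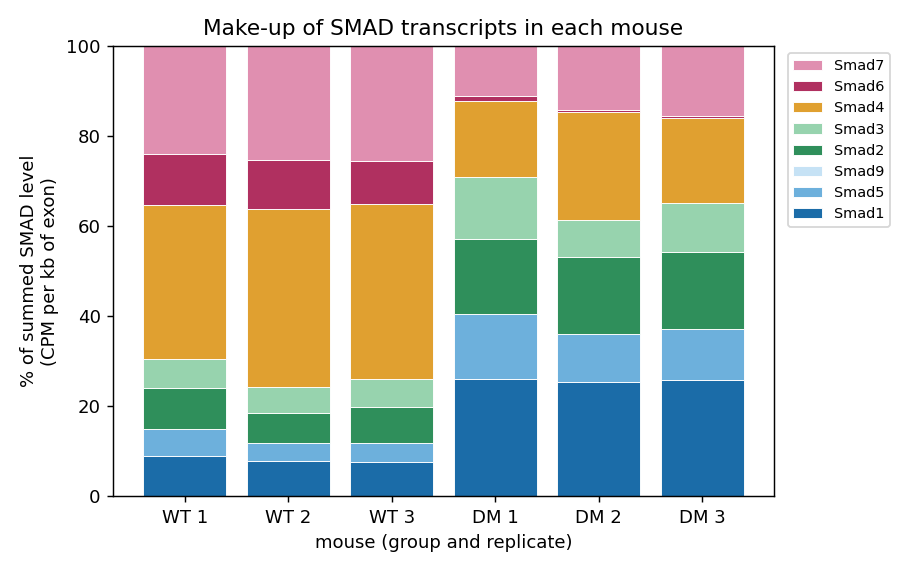
Share of each SMAD gene in the summed SMAD level (percent of CPM per kb of exon) in each of the 6 mice, as stacked bars from 0. *Smad4* takes 34.33% to 39.66% of each WT bar and 16.91% to 24.0% of each DM bar, and *Smad6* almost disappears from the DM bars.

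Ratios between classes within a mouse, again per kb of exon, showed the balance of mediator, inhibitors and receptor-regulated members. *Smad4* over the 5 summed receptor-regulated genes was 1.128, 1.637 and 1.485 in WT mice 1 to 3 and 0.2385, 0.3913 and 0.290 in DM mice 1 to 3, a mean difference of -2.22 on the log2 scale. The inhibitory genes over the same sum gave 1.158, 1.490 and 1.344 in WT and 0.1725, 0.2392 and 0.2439 in DM mice, a difference of -2.62. With geometric means in place of sums, and *Smad9* left out, this difference was -3.80. In every WT mouse both ratios were above 1 and in every DM mouse both were below 0.4. The first part depends on the exon union as length. With the length of the first-numbered transcript both ratios of WT mouse 1 were below 1, and the differences were -2.29 and -2.69. The BMP-branch genes over the TGF-β-branch genes gave 0.9753, 0.9507 and 0.8289 in WT and 1.330, 1.414 and 1.328 in DM mice, a difference of 0.57. This shift was smaller, 1.48-fold, and its groups did not overlap either.

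**Figure D4:**
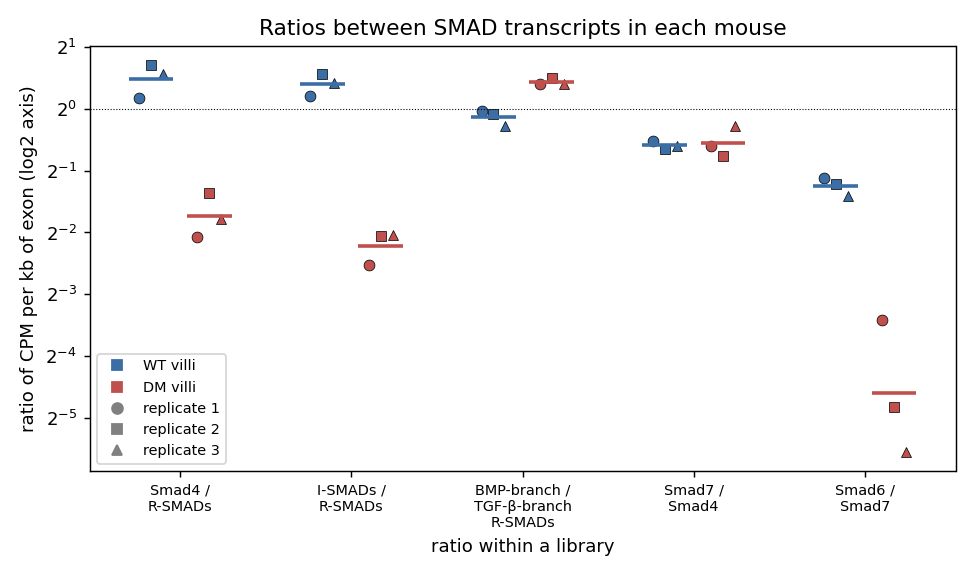
Ratios of SMAD classes (R-SMADs, receptor-regulated; I-SMADs, inhibitory) and of *Smad7* to *Smad4* and *Smad6* to *Smad7* within each mouse (log2 axis; CPM per kb of exon), with 1 point per mouse and a bar at the mean of the log2 ratios. *Smad4* and the inhibitory genes, each over the receptor-regulated genes, are lower in all DM mice, and the BMP branch over the TGF-β branch is higher in all DM mice.

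A stretch of the *Smad6* promoter is shown because this gene had the largest change and holds, at its start, the palindrome GTCTAGAC, a sequence that SMAD3 and SMAD4 are known to bind. RefSeq's table of promoters (GRCm38.p6, 250 bases before to 50 after each start) held 5 of the 8 members, *Smad1*, *Smad3*, *Smad5*, *Smad6* and *Smad9*. The line gives chr9:64022056-64022175 of GRCm38.p6 on the minus strand, 5′ to 3′, with the palindrome in capitals, its first base at -4 from the annotated start.
*Smad6*: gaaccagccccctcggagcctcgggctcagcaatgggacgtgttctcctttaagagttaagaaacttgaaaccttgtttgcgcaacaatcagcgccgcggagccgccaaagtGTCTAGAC
The palindrome, searched on both strands, was in 70 of 32851 promoter windows (0.213%), and among the 5 SMAD genes in that table it was found for *Smad6* alone. The GC-rich element GGCGCC, known to be bound by SMADs of the BMP branch, was in 11.9% of windows and was found for *Smad5*, *Smad9* and the BMP target *Id2*. No match was found for *Id1* or *Id3*, which were searched as well and whose presence among the windows was not checked. A match describes the letters and says nothing of binding in these cells.

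Some SMAD genes lie near each other on a chromosome. *Smad3* and *Smad6* are on chromosome 9 with 195 kb and no other gene of the table between them, and their log2 fold changes were -0.45 and -5.39. *Smad4* and *Smad7* are on chromosome 18, 1664 kb apart, and had log2 fold changes of -2.22 and -2.17. Of 24 table genes between them 14 were tested, of which 5 were higher and 4 lower, where 36.8% of all tested features were called. *Smad2*, 846 kb beyond *Smad7*, did not pass the test, and of the 3 table genes between that pair 2 were tested and 1 was lower.

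Among 7912 genes with a mean of at least 10 CPM, the likeness of pattern was measured as the Euclidean distance of centred log2 CPM over the 6 libraries. The gene nearest to *Smad4* was *Smad7*, at a distance of 0.362. *Dnase1* (181.3 to 30.7 CPM, log2 fold change -2.56) and *Rfk*, which encodes riboflavin kinase (log2 fold change -1.98), came next. *Smad7* had *Acot12*, an acyl-CoA thioesterase gene, at 0.359 (64.5 to 13.69 CPM), then *Smad4*, then 6430598A04Rik at 0.445. *Smad6* had no equally close neighbour. Its nearest were *Clca6* at 1.23 (ENSMUSG00000068547, named Clca4a in the study; log2 fold change -6.20), *Pmp22* at 1.24 (217.5 to 8.679 CPM) and 2010109I03Rik at 1.43. *Smad1* was nearest to *Cct6a* at 0.112, a chaperonin subunit gene that went from 51.13 to 65.33 CPM, and to *Actr8* and *Adam15*. With 6 libraries in 2 groups, closeness mostly reflects a fold change of the same size.

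Genes that act upstream of, on and with the SMADs were counted in 5 lists. Of 12 receptor genes 10 were tested, and *Tgfbr2*, which encodes the type II receptor that binds TGF-β, was the one that passed, where 36.8% of all tested features did. Without DM mouse 1, and in females alone, 1 receptor was higher and 2 were lower. The level of *Tgfbr2* was 7.581, 15.61 and 16.63 CPM in WT and 123.7, 89.98 and 114.2 CPM in DM mice, 8.26-fold higher (log2 fold change 3.05, standard error 0.301, edgeR adjusted p = 0.000438). All DM mice were far above all WT mice. The median log2 fold change of the receptor list was -0.20, beside 0.02 for all tested features.

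Of 13 genes for SMAD turnover, all tested, 3 fell (23.1%, beside 17% over all features) and 0 rose (beside 19.7%). *Itch*, a HECT-type ubiquitin ligase gene, had 179.8, 220.4 and 170.5 CPM in WT and 98.77, 76.25 and 84.58 CPM in DM mice (log2 fold change -1.14, edgeR adjusted p = 0.000723). Its relative *Wwp2* had 95.05 to 123.8 CPM in WT and 71.62 to 74.78 CPM in DM mice (log2 fold change -0.62, edgeR adjusted p = 0.00544). *Smurf1* and *Smurf2* encode the ubiquitin ligases that the inhibitory SMADs bring to receptors. *Smurf1* went from 38.6 ± 4.51 to 28.2 ± 2.94 CPM (SD, n = 3; log2 fold change -0.45, edgeR adjusted p = 0.0311), a call that held once when each mouse was omitted in turn, without WT mouse 1, with adjusted p up to 0.109. *Smurf2* had 71.4 ± 7.14 and 69.7 ± 9.34 CPM, with a log2 fold change of -0.03 (edgeR adjusted p = 0.861), which moved to 0.16 with the shift of all genes under scaling by library size alone.

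Of 13 genes for anchors, phosphatases and transport of SMADs, all tested, 1 rose (7.69%, beside 19.7% over all features) and 4 fell (30.8%, beside 17%). Under scaling by library size alone the list had 3 higher and 1 lower, where the calls over all features also moved, to 3732 higher and 1425 lower. The count of 5 calls fell to 1 without WT mouse 2 or with the replicate number as a block, to 2 without DM mouse 2 and to 3 without DM mouse 1, DM mouse 3 or WT mouse 3. Both of the largest falls were in genes of small C-terminal domain phosphatases, which remove phosphates from SMADs. Their relative *Ctdsp2* did not pass, and its groups overlapped (log2 fold change -0.13, edgeR adjusted p = 0.416). *Ctdsp1* had 136.3, 151.1 and 155.8 CPM in WT and 90.37, 105.7 and 107.0 CPM in DM mice (log2 fold change -0.55, edgeR adjusted p = 0.00661). *Ctdspl* went from 51.6 ± 7.02 to 34.2 ± 5.77 CPM (log2 fold change -0.59, edgeR adjusted p = 0.0199), and its adjusted p was 0.0592 without DM mouse 1, 0.0627 without DM mouse 2 and 0.0654 without WT mouse 2. *Xpo4*, which encodes the exportin of SMAD3, had 2.708 to 4.026 CPM in WT mice and 9.858, 5.426 and 4.936 CPM in DM mice 1 to 3 (log2 fold change 0.99, edgeR adjusted p = 0.0378). DM mouse 1 stood above the other DM mice. Of 6 fits with a mouse omitted, the call held in that without DM mouse 3 alone, and the log2 fold change without DM mouse 1 was 0.62 (edgeR adjusted p = 0.131).

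Of 16 nuclear partners 13 were tested, with 2 higher and 2 lower, or 15.4% each way beside 19.7% and 17% over all features. This split was not stable: without DM mouse 1 or WT mouse 1 it was 2 higher and 4 lower, in females alone 1 and 6, and 1 each with the block or without DM mouse 2, DM mouse 3 or WT mouse 3. *Tgif1*, which encodes a homeobox corepressor of SMAD2 and SMAD3, had 6.456, 5.603 and 6.318 CPM in WT and 34.08, 33.49 and 28.72 CPM in DM mice (log2 fold change 2.39, edgeR adjusted p = 3.53e-05). *Smarca4*, the gene of a chromatin remodelling ATPase, went from 86.2 ± 3.77 to 110 ± 1.38 CPM (edgeR adjusted p = 0.0218), past the threshold in 3 of 6 fits with a mouse omitted and at an adjusted p of 0.0536, 0.0639 and 0.0778 without DM mouse 2, DM mouse 3 and WT mouse 3. *Atf3*, a stress-induced factor gene, fell from 30.6 ± 3.25 to 19.9 ± 1.78 CPM (edgeR adjusted p = 0.00815). *Sp1* went from 78.5 ± 9.22 to 58.0 ± 6.46 CPM (edgeR adjusted p = 0.0316), lost without DM mouse 2, DM mouse 3, WT mouse 2 or WT mouse 3, with adjusted p up to 0.111. The corepressor genes *Ski* and *Skil* did not pass, with log2 fold changes of -0.18 and -0.20. *Skil* was 79.39 CPM in WT mouse 1 against 158.6 and 145.7 CPM in the other WT mice, and without WT mouse 1 its log2 fold change was -0.45 (edgeR adjusted p = 0.0245). Without WT mouse 2 or WT mouse 3 it was -0.02 or -0.10 (edgeR adjusted p = 0.969 and 0.818). Under scaling by library size alone *Smurf1*, *Ctdspl* and *Sp1* were not called, with edgeR adjusted p values of 0.189, 0.0677 and 0.201.

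Of 20 immediate targets and feedback genes 13 were tested. Of these 3 rose (23.1%, beside 19.7% over all features) and 6 fell (46.2%, beside 17%), with a median log2 fold change of -0.20, and *Tgif1* and *Skil* count here as well. *Id1*, *Id2* and *Id3*, which encode inhibitors of basic helix-loop-helix factors and are well known targets of BMP SMADs, fell 8.5-, 18.5- and 7.7-fold, between *Smad4* and *Smad6* in size. The other genes of the list that fell were *Cdkn1a*, *Tgfbi* and *Cdkn2b*, with log2 fold changes of -1.92, -1.23 and -0.64. *Id4* had few reads, with 0, 11 and 27 counts in WT and 20, 11 and 16 in DM mice, and did not pass. The largest rise was in *Gdf15*, a stress-induced ligand gene, from 0.451 ± 0.323 to 2.57 ± 0.109 CPM (log2 fold change 2.52, edgeR adjusted p = 0.00499). Its level was low in all libraries.

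**Figure D5:**
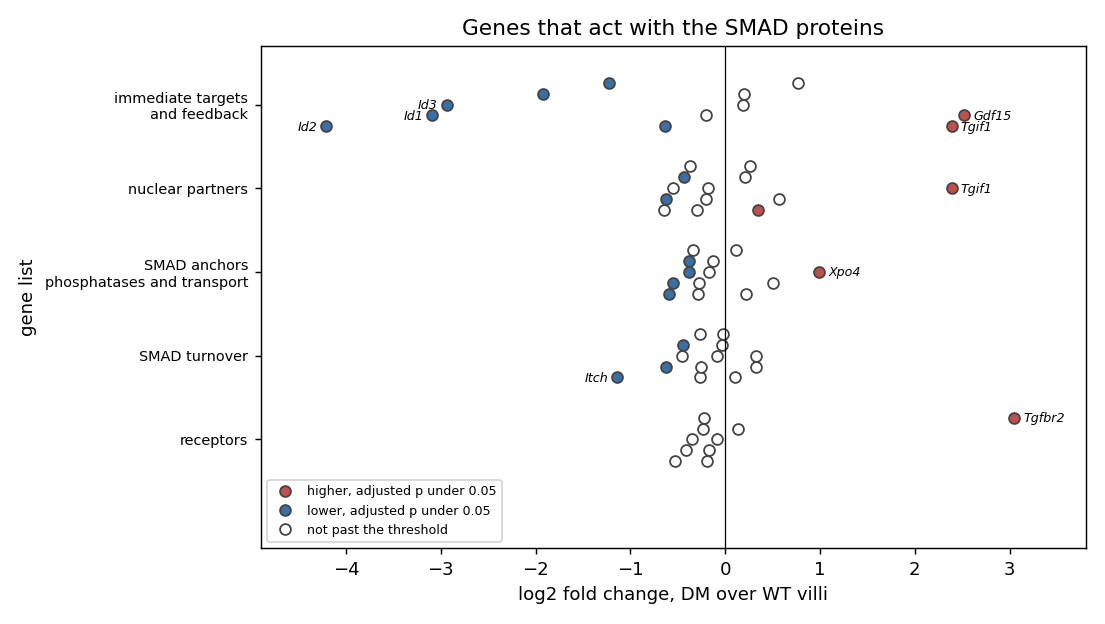
Log2 fold change of DM over WT villi for tested genes of the 5 lists of genes that act with the SMADs, 1 point per gene, filled where the adjusted p was under 0.05 (edgeR). Most genes lie near 0, while *Id1*, *Id2* and *Id3* lie between -4.21 and -2.94 and *Tgfbr2*, *Tgif1* and *Gdf15* above 2.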

How the data were processed

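Polyadenylated RNA of 6 mice was sequenced in paired reads of 150 bases. The values deposited by the authors are raw counts per gene and mouse, made with featureCounts from cleaned reads that HISAT2 had placed on the mm9 genome, and no normalization was applied. The strand setting and the handling of reads matching several genes are not given in the sources used here.

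From these counts, features were kept by filterByExpr, scaled by TMM and tested with edgeR 4.0.16 (glmQLFit, robust; glmQLFTest; R 4.3.3), with Benjamini-Hochberg adjustment over 13346 features and a threshold of 0.05. Standard errors are the log2 fold change over the square root of F. The code was tested on simulated data. The p-values measure the spread between mice. A single ratio of 3 mice against 3 cannot go below p = 0.1 in an exact two-sided permutation test, so none is printed. Log2 CPM for likeness used a prior count of 2. Symbols came from GENCODE's annotation of mm9, which held 20032 of 20073 Ensembl identifiers, and the other 336 features are numbered transcripts.

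The SMAD genes and all lists were chosen with earlier results of these data known. Named list genes are the 2 largest called changes per direction in each list, plus *Smurf1*, *Smurf2*, *Ski*, *Skil* and the *Id* genes. Of these 1 gene is not reported or plotted here, although the list counts include it. *Cdkn1a*, *Tgfbi*, *Cdkn2b* and *Ctdsp2* are given outside this rule. *Bmpr1b* and *Msx2* were not matched in the table, and *Ccn2* is listed as Ctgf. Alternatives were DESeq2 1.42.0, RLE factors, library size alone, limma-voom (limma 3.58.1), 2 other filters on low counts, sex as a covariate, a replicate block, raw counts or geometric means in the ratios, each mouse left out, and, added after the data were seen, females alone and another transcript length.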

Additional observations from a re-analysis of the deposited data

Results flagged for a closer look

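No SMAD gene met a criterion for a closer look. In some genes of the lists the male pair (DM mouse 1 and WT mouse 1) and both female DM mice moved in opposite directions. The share of all tested features with this pattern was not counted, so it is not read as a trait of these genes. The log2 ratio of DM over WT in the males and then in the females was 0.03 and -0.75 for *Acvr1c*, 0.37 and -0.86 for *Bmpr2*, 0.29 and -0.21 for *Smurf2*, 0.33 and -0.32 for *Trim33*, 0.20 and -0.92 for *Usp9x*, 0.19 and -0.13 for *Usp15*, 0.11 and -0.30 for *Zfyve9*, 0.24 and -0.59 for *Zfyve16*, -0.01 and 0.18 for *Ranbp3*, and 0.67 and -0.55 for *Skil*. The male ratios of *Acvr1c* and *Ranbp3* were near 0. The difference between the sexes was not tested. The males were 1 mouse per group, and the male WT mouse is the one whose goblet, Paneth and crypt stem cell markers stood apart.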

How the results depend on the processing

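*Smad4*, *Smad6* and *Smad7* passed the threshold in the same direction in all 15 alternative fits, with log2 fold changes from -2.36 to -2.04, -5.98 to -5.11 and -2.32 to -1.98. *Smad1* passed in 6 of 15 (0.30 to 0.57) and was not called with DESeq2 (0.35), RLE factors (0.35) or females alone (0.38). *Smad3* passed in 2 of 15, in females alone at -0.66. Library size alone, which moved all genes by a median of 0.19, took *Smad2* to 0.01, *Smurf2* to 0.16 and *Ski* to 0.02. *Smad5* reversed to -0.04 without DM mouse 1 or WT mouse 3. *Id4* reversed to -0.63 in females alone. With each mouse left out *Smurf2* ran from -0.14 to 0.05 and *Id4* from -0.42 to 1.37. The cause of the changes of sign of *Smad5*, *Id4* and, with a mouse left out, *Smurf2* was not tested. With each mouse left out the log2 fold change ran from 0.30 to 0.46 for *Smad1*, -0.04 to 0.19 for *Smad5*, -0.23 to -0.13 for *Smad2*, -0.60 to -0.26 for *Smad3*, -2.36 to -2.06 for *Smad4*, -5.93 to -5.11 for *Smad6* and -2.32 to -2.01 for *Smad7*. It left 3 to 4 SMAD genes called, 3442 to 5144 features, 1 to 3 receptors, 2 to 3 turnover genes, 1 to 4 anchor, phosphatase and transport genes, 2 to 6 nuclear partners and 8 to 10 targets, and the log2 ratios differed by -2.41 to -2.05, -2.71 to -2.45 and 0.49 to 0.61. Females alone gave 3 receptors and 7 nuclear partners. Library size alone called 3732 features higher and 1425 lower, beside 2632 and 2273. The replicate numbers, taken from the labels and given in another order in the study's sample sheet, do not pair the mice: deviations of mice with the same number correlated at 0.022, -0.109 and 0.012. With the replicate block *Smad1* was at 0.38 (adjusted p = 0.0989, edgeR), 3834 features were called in place of 4905, and the lists of anchors and of nuclear partners had 1 and 2 calls in place of 5 and 4. *Smurf1*, *Ctdspl*, *Xpo4*, *Smarca4* and *Sp1* lost their calls there, as did *Ctdspl*, *Xpo4* and *Smarca4* in females alone and *Xpo4* with limma-voom or sex as a covariate, and the block ended no other call among the SMAD genes and the named genes of the lists. *Smad9* was at or under the floor in all libraries, and 3 mice per group limit changes as small as that of *Smad1*. *Id4* had few counts that differed between WT mice (0, 11 and 27), and the cause was not tested.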
